A study of Mus musculus with 8 samples.

Results

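Cxcl15, Adcyap1, C2cd4a, Slc14a2, Scn3a and Enpep are 6 of the 24972 genes in the expression table of this series, and none of them is on the list of interferon-stimulated genes used here. They were chosen from the measured values: each was among the largest falls in Tfam+/- cells against wild type, or among the largest rises in Tfam+/-Zbp1-/- cells over Tfam+/- cells, outside the interferon genes. All 6 were found in the table by symbol, and all 6 passed the filter on low values used for the tests, a mean of at least 10 normalized counts over the libraries. C2cd4a, with a mean of 13.5, passed it through the genotypes in which it was high, so it had to differ between genotypes.

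RNA was sequenced from primary mouse embryonic fibroblasts, cultures of connective tissue cells grown from dissociated embryos at embryonic day 14 and passaged 2 times, with no treatment. There were 8 libraries of 4 genotypes, 2 per genotype: wild type (WT), Tfam+/- (heterozygous for Tfam, whose protein packages mitochondrial DNA and is a factor for its transcription), Zbp1-/- (lacking Zbp1, a sensor of Z-form nucleic acids) and Tfam+/-Zbp1-/- (both changes, called the double mutant here). No transgene or Cre is named in the labels, which do not say if the 2 libraries of a genotype are from different embryos, so a p-value measures only the spread between these libraries, which may be technical.

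The 6 genes belong to different pathways. Cxcl15 (lungkine) encodes a secreted chemokine of the neutrophil-attracting CXC group and is best known from lung epithelium. Adcyap1 encodes the neuropeptide PACAP, which acts through G protein-coupled receptors that raise cyclic AMP. Slc14a2 encodes a urea transporter best known from the kidney, and Scn3a the pore-forming subunit of a voltage-gated sodium channel of neurons. Enpep encodes aminopeptidase A, a cell surface enzyme that cleaves angiotensin II to angiotensin III. C2cd4a encodes a small nuclear protein that responds to inflammatory cytokines and has been studied in pancreatic beta cells.

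Values are the authors' normalized counts, for which no scaling by gene length is stated, so levels are compared between libraries and not between genes. Library totals ran from 16752835 to 18303036 normalized counts, with 16051 to 16261 genes above 0, and the read depth behind each value is unknown. Tfam was lower in both Tfam+/- libraries (278 and 365 normalized counts) and both double-mutant libraries (424 and 375) than in WT (629 and 610). Zbp1 was at 64.6 and 69.8 in Tfam+/- and at 0.861 to 7.34 in the other 6 libraries, so WT (7.34 and 3.19) was too near Zbp1-/- (3.79 and 1.03) for the level of Zbp1 to check that label. Fibroblast markers were present throughout (10 of 10 tested, summing to 536511 to 768517 normalized counts). Replicate 1 of Tfam+/- and replicate 2 of Zbp1-/- differed alike from their partners: the deviations of same-numbered libraries of these genotypes had a correlation of -0.70 across 13267 genes, which are not independent replicates and do not show which library of each pair departs. Of the values worth up to 20 reads, 22.2% and 22.7% were whole in these libraries, and 30.4% to 34.9% in the other 6. Some of the results that rest on these libraries are also given from the other 6, in which Tfam+/- and Zbp1-/- have 1 library each, assumed to vary like the WT and double-mutant pairs.

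In the Tfam+/- libraries 5 of the 6 genes were below every WT library, and in the double mutant all 6 were above every Tfam+/- library. These are the comparisons that chose the genes, so the counts are a description. In the background of 13267 tested genes, 25.5% were lower without overlap in Tfam+/- against WT and 42.4% higher without overlap in the double mutant against Tfam+/-. Cxcl15, Adcyap1 and Slc14a2 had both Tfam+/- libraries below the other 6 and both double-mutant libraries above the other 6, an order seen in 326 tested genes (2.46%). C2cd4a had only the second feature, which 14.9% of tested genes shared. Scn3a and Enpep had only the first, which 8.5% shared.

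**Figure D1:**
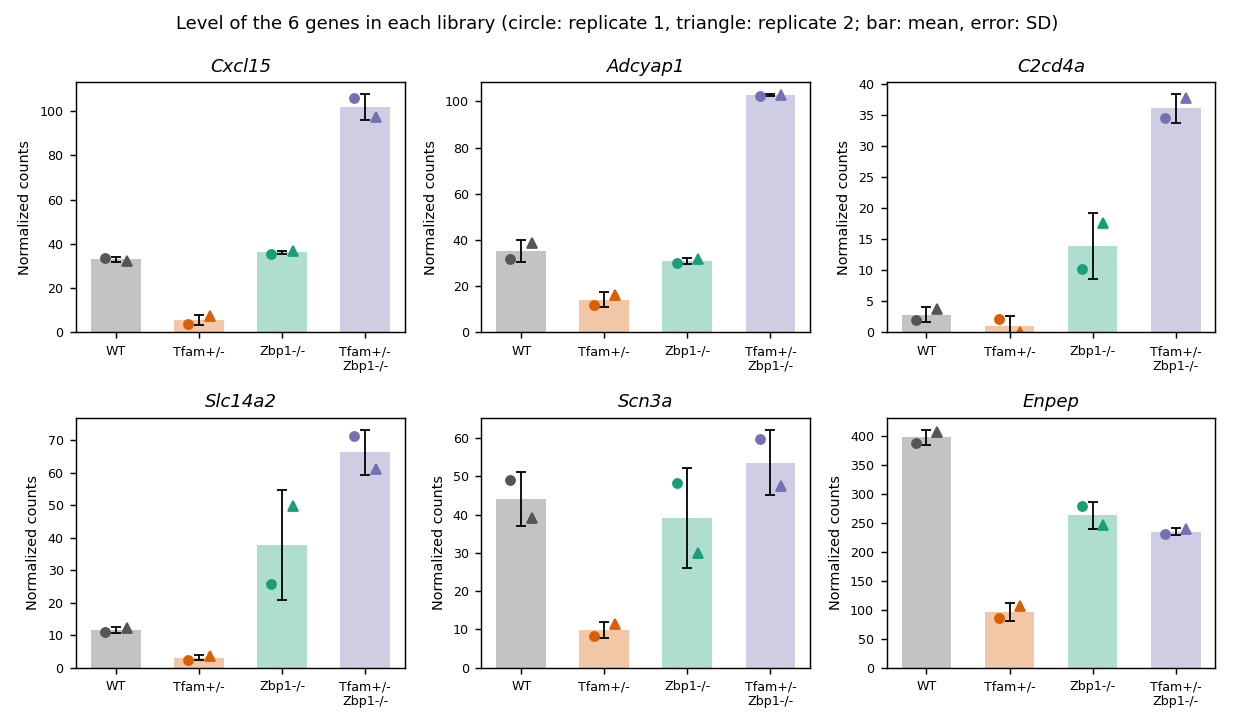
Normalized counts of each of the 6 genes in the 8 libraries, 1 panel a gene, on linear axes from 0; circles are replicate 1, triangles replicate 2, bars genotype means and error bars the SD of 2 libraries. Cxcl15 lies at 3.87 and 7.25 in the Tfam+/- libraries and at 106 and 97.6 in the double mutant, while Enpep is highest in WT, at 389 and 407.

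Differences below are on the scale of log2(normalized count + 1), with the standard error from limma's fit of the 4 genotypes together, and understate the change of low genes. Calls are at an adjusted p (Benjamini-Hochberg, over all tested genes) below 0.05. In Tfam+/- against WT the median of the 6 genes was -1.84, against -0.01 over all tested genes, and 3 of the 6 were called where 0.731% of tested genes were. In the double mutant against Tfam+/- the median was 3.40, against 0.14, and 6 of 6 were called where 5.64% were. The interaction, which is the change from Zbp1-/- to the double mutant minus the change from WT to Tfam+/-, had a median of 2.52, against 0 over all genes, and 3 of 6 were called (Cxcl15, Adcyap1 and Enpep) where 0.663% were. Since these contrasts chose the genes, nothing is read from these counts.

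Most of the 6 stood at the top of the called genes of a contrast. Outside the interferon genes, the largest called rises in the double mutant over Tfam+/- were C2cd4a (4.38), Slc14a2 (4.06) and Cxcl15 (4.02), and the next was Phyhip (3.66), which was not chosen. The largest called falls in Tfam+/- were Cxcl15 (-2.42), Scn3a (-2.06) and Enpep (-2.04), and the next was Myh1 (-1.93). Among called interactions above 0, Cxcl15 (3.89) and Adcyap1 (2.96) came next after Evi2b (5.26), which is not among the 6, and ahead of Enpp2 (2.78). Differences that were larger but not called also lay above them, such as 2210418O10Rik (7.71) in the double mutant over Tfam+/-.

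Cxcl15, the chemokine gene, lies at chr5:90794534-90803067 on the plus strand of assembly GRCm38.p6 (mm10). Its RefSeq promoter is shown with the TATA box letters in capitals, because the promoters of C2cd4a and Adcyap1 hold the same letters on the same strand. The stretch is chr5:90794284-90794583, 250 bases before to 50 after the annotated start:

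Cxcl15: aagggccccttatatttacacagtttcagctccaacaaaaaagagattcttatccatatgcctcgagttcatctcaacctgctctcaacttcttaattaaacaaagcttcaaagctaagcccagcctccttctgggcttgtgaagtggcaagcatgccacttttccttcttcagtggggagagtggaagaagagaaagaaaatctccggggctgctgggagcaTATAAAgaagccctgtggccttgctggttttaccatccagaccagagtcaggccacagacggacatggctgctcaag

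For Cxcl15 the WT libraries had 33.7 and 32.2 normalized counts, Tfam+/- 3.87 and 7.25, Zbp1-/- 35.6 and 36.7, and the double mutant 106 and 97.6. No library of one genotype reached that of another, although WT and Zbp1-/- lay within 5 counts of each other. Tfam+/- was 5.92-fold below WT by the means (log2 -2.42 ± 0.28 SE), and the double mutant 18.3-fold above Tfam+/- (4.02). Both folds rest on the low Tfam+/- values of 3.87 and 7.25, with a log2 gap of -0.76 between replicates 1 and 2. The order was therefore Tfam+/-, then WT with Zbp1-/- beside it, then the double mutant.

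Adcyap1, the PACAP gene, lies at chr17:93198245-93206541 on the plus strand. The RefSeq promoter table holds 2 overlapping windows for it, neither of them at that annotated start, and the later one is printed because it holds both a cyclic AMP response element core (TGACG) and a TATA box, in capitals. It is chr17:93198918-93199217, again 250 bases before to 50 after the start it belongs to:

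Adcyap1: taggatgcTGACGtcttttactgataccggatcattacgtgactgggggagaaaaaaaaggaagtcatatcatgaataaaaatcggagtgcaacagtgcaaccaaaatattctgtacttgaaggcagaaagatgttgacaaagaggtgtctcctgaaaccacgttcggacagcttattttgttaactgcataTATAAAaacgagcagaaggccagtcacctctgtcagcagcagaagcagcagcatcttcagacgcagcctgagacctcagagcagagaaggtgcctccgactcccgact

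The WT libraries had 31.8 and 38.7 normalized counts of Adcyap1, Tfam+/- 12.1 and 16.4, Zbp1-/- 29.98 and 31.9, and the double mutant 102 and 103. WT and Zbp1-/- overlapped, Tfam+/- lay below both, and the double mutant above everything else. Tfam+/- was 2.48-fold below WT (log2 -1.26 ± 0.22 SE) and the double mutant 7.22-fold above Tfam+/- (2.78). The replicates of the double mutant differed by less than 1 normalized count.

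C2cd4a, at chr9:67830532-67832330 on the minus strand, has a TATA box and, on the opposite strand, the same cyclic AMP core (CGTCA as printed) in the window chr9:67832281-67832580, shown with both in capitals:

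C2cd4a: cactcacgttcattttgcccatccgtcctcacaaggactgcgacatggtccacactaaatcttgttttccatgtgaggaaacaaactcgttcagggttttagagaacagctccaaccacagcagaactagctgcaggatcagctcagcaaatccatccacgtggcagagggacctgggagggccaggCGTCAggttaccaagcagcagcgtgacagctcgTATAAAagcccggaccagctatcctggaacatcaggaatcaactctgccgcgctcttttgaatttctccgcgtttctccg

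Normalized counts of C2cd4a were 1.97 and 3.77 for WT, 2.17 and 0 for Tfam+/-, 10.2 and 17.6 for Zbp1-/-, and 34.4 and 37.6 for the double mutant. WT and Tfam+/- overlapped near 0, and both Zbp1-/- libraries lay above them and below the double mutant. Its difference between the double mutant and Tfam+/- was 4.38 ± 0.62, with the largest standard error of the 6 genes. No fold against Tfam+/- or WT is given for it, because those levels are near 0.

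Slc14a2, the urea transporter gene, spans chr18:78146144-78596950. Its normalized counts were 11.02 and 12.3 for WT, 2.53 and 3.60 for Tfam+/-, 25.9 and 49.9 for Zbp1-/-, and 71.3 and 61.4 for the double mutant. The 4 genotypes did not overlap and stood in the order Tfam+/-, WT, Zbp1-/- and double mutant, but the Zbp1-/- libraries lay further from each other than replicate 2 did from the double mutant. The log2 difference was -1.65 ± 0.36 (SE) for Tfam+/- against WT and 4.06 for the double mutant against Tfam+/-, and no fold is given for either because the Tfam+/- levels are near 0. In Zbp1-/- Slc14a2 was already 3.26-fold above WT by the means, and C2cd4a was the other gene of the 6 with a higher level in both Zbp1-/- libraries by more than 1 log2 unit.

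Scn3a, the sodium channel gene, lies at chr2:65457118-65567591. WT had 49.1 and 39.0 normalized counts of Scn3a, Tfam+/- 8.33 and 11.4, Zbp1-/- 48.3 and 29.9, and the double mutant 59.6 and 47.5. Only the Tfam+/- libraries stood apart, and the other 3 genotypes overlapped. Tfam+/- was 4.48-fold below WT (log2 -2.06 ± 0.31 SE), and the double mutant 5.44-fold above Tfam+/- (2.34).

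Enpep, the aminopeptidase A gene, lies at chr3:129269177-129332749 on the minus strand. WT libraries held 389 and 407 normalized counts of Enpep, Tfam+/- 85.9 and 107, Zbp1-/- 279.7 and 247, and the double mutant 231 and 239. No genotype overlapped another, and the order was Tfam+/-, double mutant, Zbp1-/- and WT, with the double mutant and Zbp1-/- closest to each other. Tfam+/- was 4.12-fold below WT (log2 -2.04 ± 0.15 SE), and the double mutant 2.43-fold above Tfam+/- (1.28). Enpep is thus the only one of the 6 whose double-mutant level stayed below WT in both libraries.

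Promoters of 4 of the 6 genes were found in the RefSeq table. A script searched both strands for 6 motifs: the cyclic AMP response element TGACGTCA, its core TGACG, the AP-1 site TGANTCA, the interferon-stimulated response element (a GAAA repeat with 2 bases between), the GAS element TTCNNNGAA and the TATA box TATAAA. The core is contained in the full cyclic AMP element. The TATA box was found from -27 to -22 in Cxcl15, from -30 to -25 in C2cd4a and from -58 to -53 in the later window of Adcyap1, counting the start of each window as 0, and on the opposite strand of Enpep from -52 to -47 and from -1 to 4. It is present in 13.6% of 32851 mouse promoters of this length. The core TGACG was found in C2cd4a from -63 to -59 and in Adcyap1 from -242 to -238 in the later window and from -91 to -87 in the earlier one, which are the same bases, and 20.8% of promoters hold it. Adcyap1 had the interferon element from -238 to -229 in its earlier window (3.44% of promoters), and Enpep the GAS element from -141 to -133 (8.3%). The full cyclic AMP element (1.79%) and the AP-1 site (7.81%) were not among the letters of these windows. A match of letters is a description and not a bound site.

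The comparison least bound to the choice of the genes is Zbp1-/- against WT, the difference between the Zbp1 genotypes in cells with normal Tfam. It still shares the WT libraries with the falls that chose them, and both of its genotypes enter the interaction. None of the 6 genes was called in it by limma, where 1.06% of tested genes were, and 3 of the 6 (Slc14a2, Enpep and C2cd4a) had an unadjusted p under 0.05. Nothing is read from that count, since C2cd4a passed the filter on low values through Zbp1-/- and the double mutant and the WT libraries also chose the genes. Slc14a2 (1.55 ± 0.36, adjusted p 0.11) and C2cd4a (1.94 ± 0.62, adjusted p 0.18) were higher in both Zbp1-/- libraries, Enpep was lower in both (-0.60 ± 0.15, adjusted p 0.13), and Cxcl15 was higher by 0.13 with no overlap (adjusted p 0.79). Adcyap1 (-0.18, adjusted p 0.63) and Scn3a (-0.20, adjusted p 0.70) overlapped between the genotypes. Over all tested genes, 42.1% were higher without overlap and 16.8% lower, and 2619 genes had an unadjusted p under 0.05. From the 6 libraries without Tfam+/- replicate 1 and Zbp1-/- replicate 2, limma called Slc14a2 (1.09, adjusted p 0.03) and Enpep (-0.51, adjusted p 0.0017), 2 of 6 where it called 34.3% of tested genes. The median of the 6 genes with all libraries was -0.02, against 0.11 for all genes.

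In the double mutant against WT the 6 genes split. The contrast is the sum of the falls and rises that chose the genes, so it is no independent support. limma called Adcyap1 (2.91-fold higher by the means, log2 1.52, adjusted p 0.034) and Slc14a2 (5.70-fold, 2.41, adjusted p 0.035), 2 of 6 where 1.38% of all genes were called. Cxcl15 (3.09-fold, 1.60, adjusted p 0.055) and C2cd4a (3.30, adjusted p 0.063) narrowly missed the threshold and were higher in both libraries without overlap, as were 58.8% of tested genes. Scn3a overlapped WT (0.28, adjusted p 0.78), and Enpep was lower by 0.76 (adjusted p 0.071), as 14.1% of genes were without overlap. Without either WT or either double-mutant library no call held, for the 6 genes or for any other tested gene. Without either Tfam+/- library, and from the 6 libraries, more members were called than in the main fit, but so were more of all tested genes. With each library left out the difference of Adcyap1 ran from 1.38 to 1.66 and that of Slc14a2 from 2.30 to 2.52.

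In the double mutant against Zbp1-/-, the difference between the Tfam genotypes where Zbp1 was absent, limma called 1 of the 6, Adcyap1 (3.32-fold higher, log2 1.70, adjusted p 0.046), where 0.415% of tested genes were called. Cxcl15 was 2.82-fold higher (1.47, adjusted p 0.12). C2cd4a (1.36, adjusted p 0.44) and Slc14a2 (0.86, adjusted p 0.40) were higher in both libraries, the latter by 0.40 to 1.32 with each library left out, and Scn3a (0.47, adjusted p 0.56) overlapped. Enpep was lower by 0.16 (adjusted p 0.62). Of all tested genes, 26.2% were higher and 23.3% lower without overlap. From the 6 libraries, 4 of the 6 were called (Cxcl15, Adcyap1, C2cd4a and Slc14a2), where 23.4% of tested genes were, and without any single library other than a Tfam+/- library 0 were. The fits in which 0 members were called also called fewer of all tested genes than the main fit. The double-mutant libraries are shared with the rises that chose the genes. This comparison also equals the interaction plus the change from WT to Tfam+/-, both of which chose the genes. It is therefore no independent support.

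**Figure D2:**
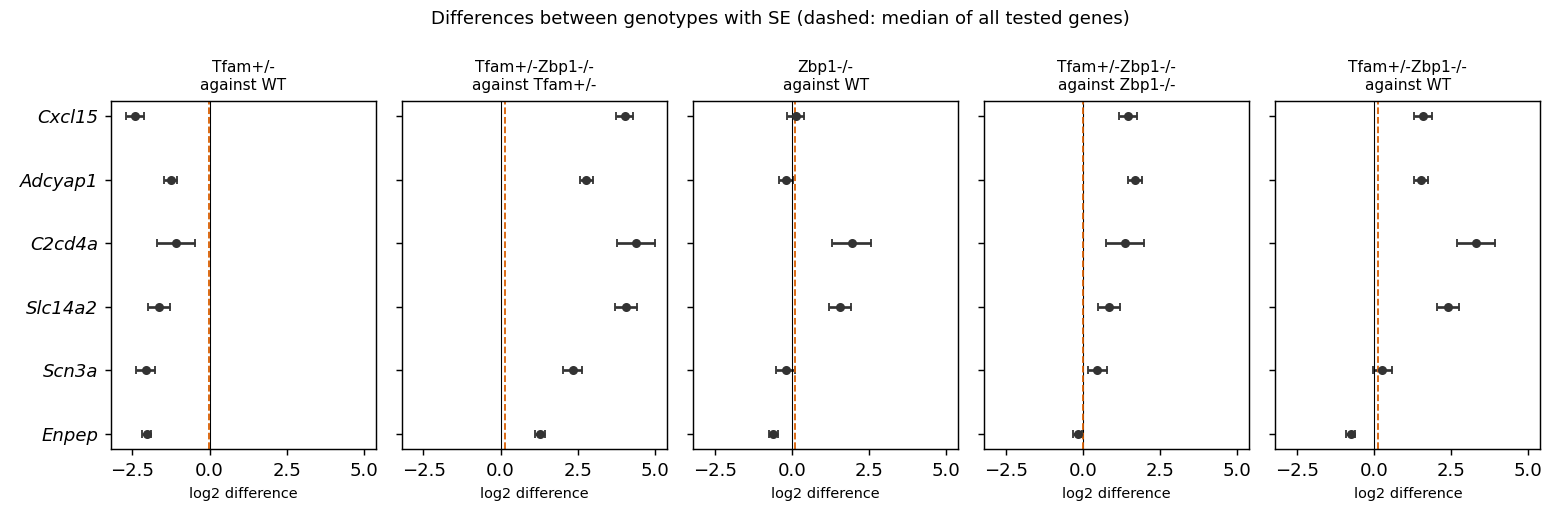
Differences of the 6 genes (log2 of normalized count + 1) in 5 comparisons between genotypes, with points for estimates, error bars for standard errors from the limma fit and a dashed line at the median of all tested genes. In Zbp1-/- against WT the points run from -0.60 (Enpep) to 1.94 (C2cd4a), with Cxcl15, Adcyap1 and Scn3a near 0.

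When 1 library was left out at a time, the direction of the changes in Tfam+/- against WT and in the double mutant against Tfam+/- held for all 6 genes. These contrasts chose the genes, so this is no support. Where genotypes do not overlap, leaving out 1 library cannot turn the direction. For C2cd4a, whose WT and Tfam+/- libraries overlapped, the difference in Tfam+/- against WT ran from -1.91 to -0.25. The interaction of C2cd4a ran from 1.60 to 3.27 over these fits and that of Cxcl15 from 3.51 to 4.27. The Scn3a difference in Zbp1-/- against WT was -0.53 to 0.14, so its sign turned.

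**Figure D3:**
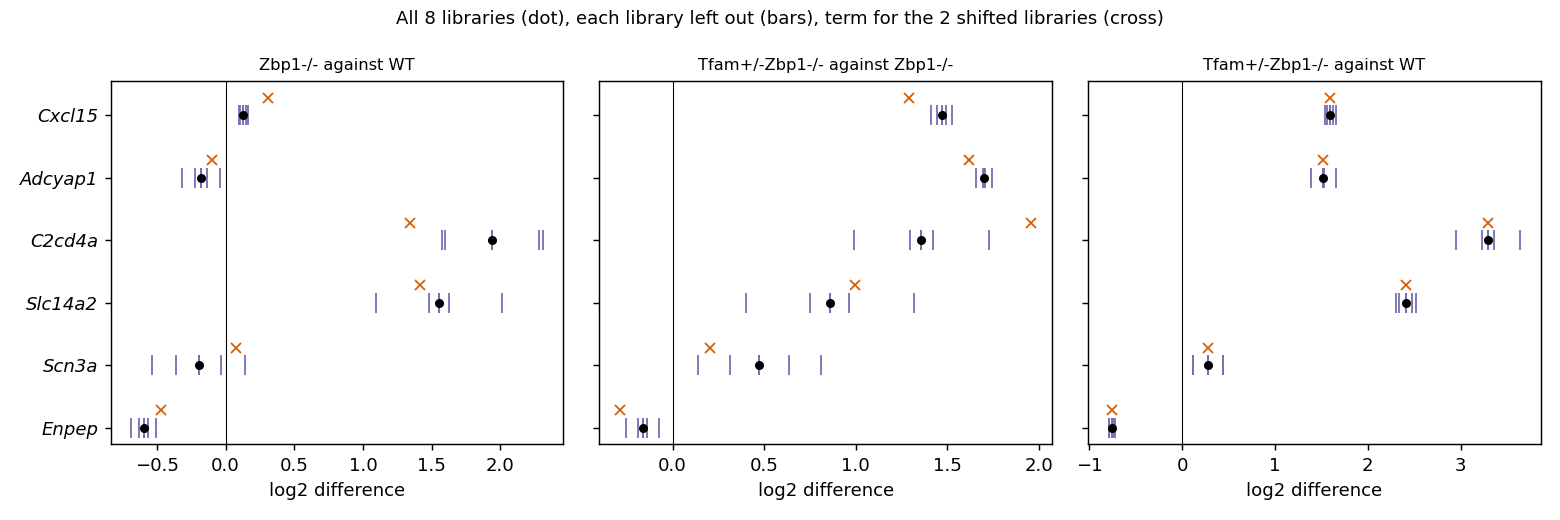
Differences of the 6 genes (log2 of normalized count + 1) in the 3 comparisons not used directly to choose them, with a dot for all 8 libraries, a vertical bar for each library left out and a cross for the fit with a term shared by Tfam+/- replicate 1 and Zbp1-/- replicate 2. These comparisons share libraries with those that chose the genes. For Scn3a in Zbp1-/- against WT the bars span both sides of 0, from -0.53 to 0.14.

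Most genes of the pathways and families of the 6 did not pass the test. Beside Cxcl15, the list of CXC chemokines and receptors held Cxcl1, Cxcl2, Cxcl3, Cxcl5, Ppbp, Pf4, Cxcr1, Cxcr2 and Ackr1, but not Cxcl12. Only Cxcl1, Cxcl5, Ppbp and Pf4 passed the filter on low values, so no receptor was tested. In the double mutant over Tfam+/-, 1 of these 4 was called higher and 0 lower, with a median of 0.71 against 0.14 for all genes (3.32% of genes are called higher). That gene was Cxcl5, another neutrophil-attracting chemokine near Cxcl15, with 688 and 641 normalized counts for WT, 283 and 438 for Tfam+/-, 703 and 363 for Zbp1-/-, and 1065 and 1119 for the double mutant. Its double-mutant libraries stood above the other 6 (1.63, adjusted p 0.037), but the interaction of 2.02 was not called (adjusted p 0.13).

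Of the genes of PACAP and VIP signalling other than Adcyap1, 0 of 11 tested were called higher in the double mutant over Tfam+/- and 1 lower, with a median of 0.11 (2.32% of genes are called lower). The lower gene was Adcyap1r1, the PACAP receptor, with 529 and 545 normalized counts for WT, 744 and 647 for Tfam+/-, 479 and 510 for Zbp1-/-, and 332 and 387 for the double mutant (-0.95, adjusted p 0.0097). The ligand gene and the receptor gene thus lay in opposite orders in Tfam+/- and the double mutant. Of 13 cyclic AMP-responsive genes tested, 0 were called in either direction (median -0.03).

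Of urea transport and urea cycle genes other than Slc14a2, 1 of 4 tested was called higher (median 0.38): Slc14a1, the neighbouring urea transporter gene, with 148 and 138 normalized counts for WT, 102 and 162 for Tfam+/-, 264 and 203 for Zbp1-/-, and 351 and 323 for the double mutant (1.38, adjusted p 0.023). Of sodium channel subunits, 1 of 8 was called higher, the leak channel gene Nalcn (1.35, adjusted p 0.049), with a median of -0.01. After a trimmed-mean rescaling of the libraries Nalcn was not called (adjusted p 0.065). Of peptidases and receptors of the renin-angiotensin system other than Enpep, 1 of 9 was called higher with a median of 0.70, Mme, the neprilysin gene, with 1029 and 1060 normalized counts for WT, 312 and 668 for Tfam+/-, 1803 and 909 for Zbp1-/-, and 2608 and 2634 for the double mutant (2.52, adjusted p 0.018). Of the inflammatory cytokine targets, set beside C2cd4a, 0 of 5 were called higher and 1 lower, Tnfaip3 (-0.72, adjusted p 0.039), and the other C2cd4 genes did not pass the filter on low values. None of these lists had a gene called in Tfam+/- against WT or in the interaction. The calls of Cxcl5, Adcyap1r1, Slc14a1, Nalcn, Mme and Tnfaip3 were each lost without either double-mutant library. All but that of Adcyap1r1 were also lost without either WT library. That of Nalcn was lost as well without either Tfam+/- library or Zbp1-/- replicate 2, that of Tnfaip3 without either Tfam+/- library, and that of Cxcl5 without Tfam+/- replicate 1. From the 6 libraries the differences were 1.315 (Cxcl5), -0.85 (Adcyap1r1), 1.05 (Slc14a1), 1.21 (Nalcn), 1.97 (Mme) and -0.80 (Tnfaip3).

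The genome neighbours of the 6 genes were looked at within 500 kb. Cxcl15 has 10 tested genes in that window, among them the CXC chemokine genes Cxcl5, Ppbp, Pf4 and Cxcl1, and of the 10 only Cxcl5 was called in the double mutant over Tfam+/-. Cxcl3, 6440 bases away on the lower side, did not pass the filter on low values and was not tested. Cxcl1 is 88177 bases away on the higher side. Slc14a2 has 7 tested genes in its window, of which 2 were called, Slc14a1, which is 4024 bases away, and Setbp1, 153427 bases away (1.11, adjusted p 0.017). The Setbp1 call was lost without either WT library, Tfam+/- replicate 1 or either double-mutant library. Over all tested genes 5.64% were called in this comparison, so nothing is read from the window counts. Adcyap1 has 0 tested genes within the window, and the windows of C2cd4a (2 tested), Scn3a (3) and Enpep (4) had 0 called. Scn2a, 53172 bases from Scn3a and also a sodium channel, was at 46.6 and 71.9 normalized counts in Tfam+/- against 107 and 103 in WT, without a call in any of the 6 comparisons. RefSeq lists genes with overlapping spans that are not in the table analysed, Gm32465 for Adcyap1, Gm36418, Gm6133, 4931439C15Rik and Gm26430 for Slc14a2 and Gm34833 for Scn3a. Overlap of exons was not checked and the use of strand in counting is not given. Whether reads of those genes enter the values of the named genes is therefore unknown.

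**Figure D4:**
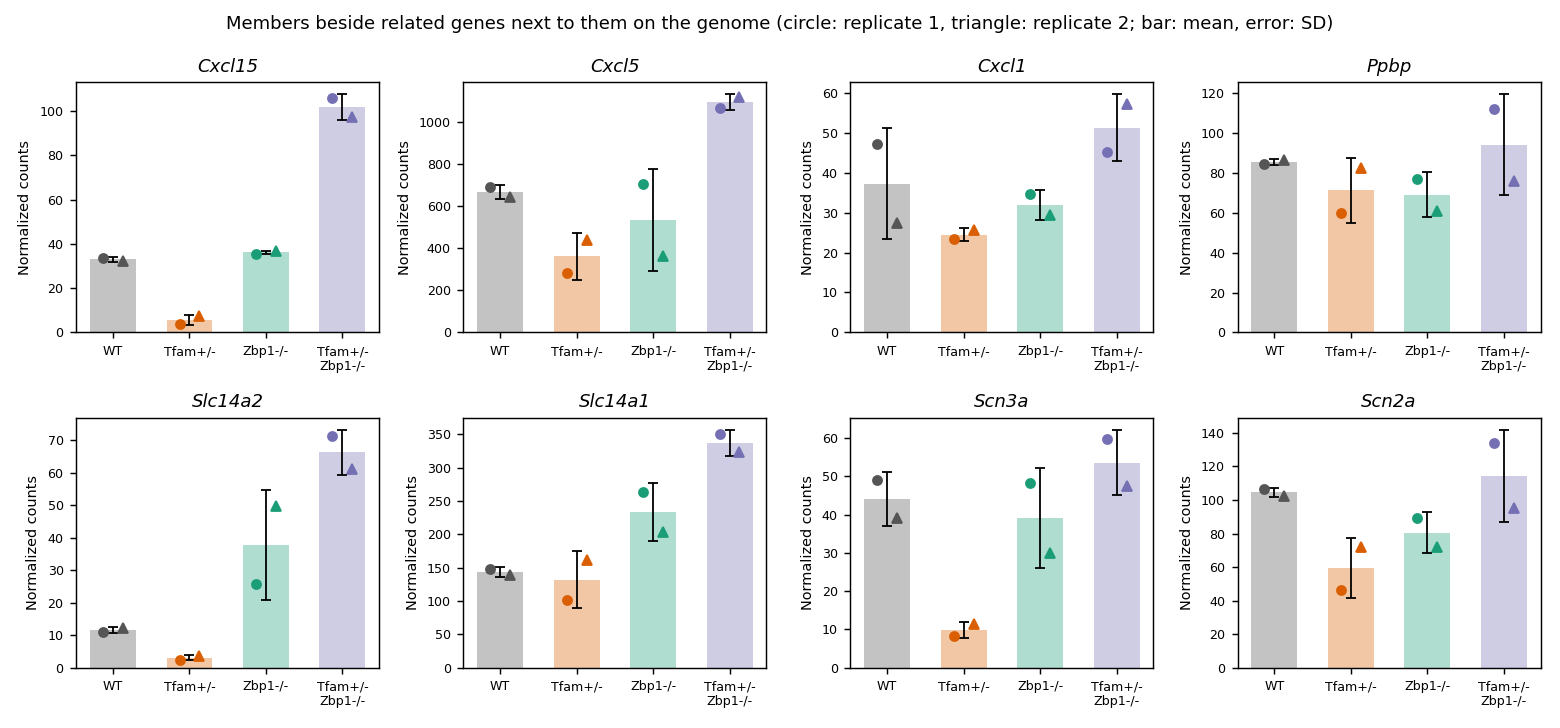
Normalized counts of Cxcl15, Slc14a2 and Scn3a beside related genes near them on the genome, 1 panel a gene on its own linear axis from 0; circles are replicate 1, triangles replicate 2, bars means and error bars the SD of 2 libraries. Cxcl5 and Slc14a1 are highest in the double mutant, like Cxcl15 and Slc14a2, while Ppbp lies between 59.8 and 112 over the libraries.

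The genes most like each of the 6 over the 8 libraries were taken as the 3 with the highest Pearson correlation of log2 values. They were Frmd5, Nt5e and Fzd4 for Cxcl15 (r 0.984 to 0.985), Ctnnal1, Itih5 and Coch for Adcyap1 (0.984 to 0.992), Kcnk3, St6galnac2 and H2afv for C2cd4a (0.993 to 0.995), Rgl1, Adamts3 and Fat4 for Slc14a2 (0.984 to 0.989), Abi3bp, Gmds and Sox6 for Scn3a (0.984 to 0.985) and Piezo2, Cxcl12 and Cd80 for Enpep (0.963 to 0.990). None of these 18 genes is in the interferon list. A correlation takes no account of size: Rgl1 moved only from 1492 to 1888 normalized counts while Slc14a2 moved from 2.53 to 71.3. With Abi3bp, an extracellular matrix gene, the size was closer, with 652 and 654 normalized counts for WT, 193 and 269 for Tfam+/-, 653 and 503 for Zbp1-/-, and 833 and 836 for the double mutant. Among the 6 genes themselves, 15 pairs had r from 0.36 (C2cd4a with Enpep) to 0.95 (Cxcl15 with Adcyap1). The 8 points share the libraries and the choice of the genes for their genotype pattern, so these are descriptions.

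Markers of other cell types were examined in the same libraries. The sum of 8 macrophage markers was 4175 to 4236 normalized counts in WT, 4839 to 5306 in Tfam+/-, 2380 to 2655 in Zbp1-/- and 2162 to 2176 in the double mutant. All 8 were tested, and 6 were called lower in the double mutant than in Tfam+/-, where 2.32% of tested genes were. These calls were each lost without either double-mutant library, and those of Cd68 and Tyrobp also without either WT library. The macrophage sum, most of it from Lyz2, was highest in Tfam+/- and lowest in the double mutant, the reverse of Cxcl15, Adcyap1 and Slc14a2, and its part in the result was not tested. By genotype means, Ptprc was lower in Tfam+/- (133) than in WT (142), and both Ptprc (72.6) and Aif1 (6.76) were lower in Zbp1-/- than in the double mutant (74.2 and 8.19). The mean log2 level of 101 interferon-stimulated genes was 8.26 and 8.38 in Tfam+/- and 6.47 to 6.97 in the other 6 libraries, and its part was not tested either. Epithelial markers summed to 638 to 1110, with 2 of 4 tested called lower in the double mutant than in Tfam+/-, and 5 of 6 lung epithelium markers were at 0 in all libraries with a sum of at most 1.0. In the double mutant against Tfam+/- 0 of 5 tested neuronal markers were called, 1 of 4 Schwann and glial markers higher, 1 of 8 mural and 1 of 3 endothelial markers lower, and 2 of 10 fibroblast markers higher. Over all tested genes 3.32% were called higher and 2.32% lower in it. The epithelial, mural, endothelial and fibroblast calls were each lost without either double-mutant library. The glial marker was S100b (adjusted p 0.048), and its call was lost with each of the 8 libraries left out in turn and after trimmed-mean rescaling (adjusted p 0.069). In bulk RNA, fewer cells of a type and less RNA per cell cannot be told apart.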

How the data were processed

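The series holds RNA sequencing of 8 libraries of primary mouse embryonic fibroblasts. Reads were aligned with STAR in Illumina's BaseSpace RNAseq Alignment to mm10 with RefSeq genes, per the series' design text; the submitters' processing notes also name STAR 2.6.1a and Salmon. The deposited table holds the authors' normalized counts, a signal of at least 0 for each gene. The sources used here do not say how reads were counted, whether strand was used or how values were scaled. Low values (up to 20 reads) were whole within 0.01 in 22.2% to 34.9% of cases per library, so whole reads were not recovered and no count test was run.

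Tests used limma 3.58.1 in R 4.3.3 on log2(normalized count + 1), with the 4 genotypes in 1 fit with a mean-variance trend (4 residual and 2.77 prior degrees of freedom), genes with a mean of at least 10 (13267), two-sided, Benjamini-Hochberg over all of them, called under 0.05; the fit was tested on simulated data. With 2 libraries against 2 an exact permutation test cannot give a p below 0.333. The members, gene lists and alternatives were chosen with earlier results of these data known. Named genes are the 6 members, Tfam and Zbp1, genes ranked beside the members, the 3 most correlated genes per member, genome neighbours and called list genes. Libraries were grouped by their labels, and gene symbols were matched to RefSeq of GRCm38.p6 (24407 names, 97.7%). Alternatives tried were a pseudocount of 5 or of 0.1, testing unfiltered genes, a minimum mean of 50, trimmed-mean rescaling (30% of ratios and 5% of means trimmed at each end), a prior without trend, the replicate number as a block, a term shared by Tfam+/- replicate 1 and Zbp1-/- replicate 2, the 6 libraries without these, only the genotypes compared, and each library left out. Same-numbered libraries did not deviate together (correlations -0.70 to 0.06), so the numbers were not taken as pairs.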

Additional observations from a re-analysis of the deposited data

Results flagged for a closer look

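For Cxcl15, Adcyap1 and Slc14a2 the libraries with and without Tfam heterozygosity lay in opposite orders in the 2 Zbp1 backgrounds: both Tfam+/- libraries were below both WT libraries, and both double-mutant libraries above both Zbp1-/- libraries, with interactions of 3.89, 2.96 and 2.51 on the log2 scale. The values behind this interaction chose the genes, so it is a description of them, and limma's calls for Cxcl15, Adcyap1 and Enpep are no independent support. limma called the interaction in 0.663% of tested genes, and in 0 without either WT library, either double-mutant library or Zbp1-/- replicate 2, where 1005 to 1210 genes had an unadjusted p under 0.05, and in 0 with the replicate block (1381). Among the genes most like the 6, the interaction was called by limma for Abi3bp (2.05, adjusted p 0.035), Fat4 (1.07, adjusted p 0.023), Frmd5 (1.85, adjusted p 0.047), Itih5 (1.91, adjusted p 0.038), Coch (1.64, adjusted p 0.022) and Ctnnal1 (1.36, adjusted p 0.040). They were picked for their likeness to the 6 genes, so these are not independent support. With 2 libraries a genotype, no library could be screened as an outlier within its group.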

How the results depend on the processing

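The 3 contrasts that chose the genes kept their direction for all 6 under each setting that gave a value (a minimum mean of 50 tested only Enpep, and a fit of only the genotypes compared gives no interaction). Since the genes were chosen by these contrasts, nothing is read from this. Their medians were -1.84 (Tfam+/- against WT), 3.40 (double mutant against Tfam+/-) and 2.52 (interaction), and a pseudocount of 5 gave -1.40, 2.64 and 2.00, and one of 0.1 gave 2.92 for the interaction. Leaving out each library gave 2.45 to 2.89 for the interaction. The sign of Scn3a in Zbp1-/- against WT reversed from -0.20 to 0.072 with the shared term and 0.139 from 6 libraries, and ran from -0.534 to 0.139 with each library left out (0.139 without Zbp1-/- replicate 2); the cause was not tested. In Zbp1-/- against WT the count of called members was 0, but 2 with the shared term and 2 from 6 libraries, and 0 to 0 with each library left out. In the double mutant against WT it was 2, and 4 with a pseudocount of 5, 1 with no filter, 0 with a mean of at least 50 (1 member tested), 5 with the shared term, 5 from 6 libraries, 5 with only the genotypes compared, and 0 to 5 with each library left out. In the double mutant against Zbp1-/- it was 1, and 0 with no filter, 0 with a mean of at least 50, 3 with the shared term, 4 from 6 libraries, 0 with only the genotypes compared and 0 to 2 with each library left out. The share of all tested genes called changed too. In the double mutant against WT it was 1.38%, and 1.52% (pseudocount of 5), 0.639% (no filter) and 1.43% (mean of 50). There it was 42.5% (shared term) and 44.7% (only the genotypes compared). In Zbp1-/- against WT it was 1.06%, and 35.6% (shared term). In the double mutant against Zbp1-/- it was 0.415%, and 0.142% (no filter), 23.8% (shared term) and 0.00754% (only the genotypes compared). Nothing is read from the member counts. Of the values of single members, 496 stayed on their side, 62 moved, 29 were stronger and 22 weaker.

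The replicate block called 0, 0 and 0 members in Zbp1-/- against WT, the double mutant against WT and the double mutant against Zbp1-/-. WT and double-mutant libraries of the same number deviated in opposite ways (r -0.37), and a crossed pairing, added after the data were seen, called 5 members and 6211 genes against 6310 with the same-number block of these genotypes.

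Over all genes, the calls in Tfam+/- against WT, double mutant against Tfam+/-, interaction, Zbp1-/- against WT, double mutant against WT and double mutant against Zbp1-/- were 97, 748, 88, 141, 183 and 55; with the shared term 2069, 6049, 2240, 4717, 5634 and 3155; from 6 libraries 2049, 5779, 2534, 4548, 5946 and 3102; with the replicate block 28, 351, 0, 1, 8 and 1. Leaving out each library gave 12 to 98, 12 to 874, 0 to 126, 0 to 223, 0 to 256 and 0 to 69; without either double-mutant library the double mutant against Tfam+/- had 12 or 13, and without either WT library Tfam+/- against WT had 12. With only the genotypes compared, 44.7% of genes were called in the double mutant against WT, and with the shared term 42.5%, with 35.6% in Zbp1-/- against WT and 23.8% in the double mutant against Zbp1-/-. With no filter the interaction had 47, Zbp1-/- against WT 87, double mutant against WT 117 and double mutant against Zbp1-/- 26. Trimmed-mean rescaling called 86 in Zbp1-/- against WT and moved the median of all genes in the double mutant against Tfam+/- from 0.14 to 0.02, with 323 higher and 429 lower calls against 440 and 308. It moved the split to 63 and 23 from 119 and 22 in Zbp1-/- against WT, and to 91 and 93 from 119 and 64 in the double mutant against WT. Depth is unknown, and the level of C2cd4a and Slc14a2 in Tfam+/- rests on values near 0. That of Cxcl15 in Tfam+/- rests on low values as well (3.87 and 7.25 normalized counts).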
